A study of Homo sapiens with 9 samples.

Results

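The genes described are 10 human mucin and trefoil factor genes, taken by name from a list that held 7 mucins (MUC1, MUC4, MUC5AC, MUC5B, MUC13, MUC16 and MUC20) and 3 trefoil factors (TFF1, TFF2 and TFF3). They were matched by Ensembl identifier to the 58381 genes of the count tables, and all 10 were found. Of these, 8 had enough reads to test among 12814 tested genes, while MUC20 and TFF3 were too low. RNA was sequenced from EGI-1, an established human bile duct cancer (cholangiocarcinoma) line, in which FOSL1, a subunit of the AP-1 transcription factor, was knocked down by short hairpin RNA (shRNA). There were 3 groups of 3 libraries. FOSL1sh3 and FOSL1sh10 carried 2 different hairpins against FOSL1, and GFPsh carried a control hairpin. All 3 groups shared the cell line, the tetracycline-inducible hairpin, doxycycline at 2 ug/ml for 4 days and a further 24 hours after seeding before harvest, so that doxycycline exposure does not differ between them. The labels do not say whether each line was a clone or a pool, or whether the 3 replicates of a group were grown apart. A p-value here therefore weighs a difference only against the variation among these libraries, which could be technical.

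Mucins are large proteins covered in sugar chains attached to serine and threonine. Gel-forming mucins are secreted and build mucus, whereas transmembrane mucins stay on the apical surface of epithelial cells, where they form a barrier and take part in signalling. Trefoil factors are small, stable secreted peptides found in mucus that help epithelium to repair, and bile ducts, like the stomach, can make members of both families.

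FOSL1 itself averaged 62.3 CPM (44.8 to 72.1) in FOSL1sh3 libraries and 64.4 CPM (57 to 70.7) in FOSL1sh10 libraries, against 247 CPM (182 to 302) in GFPsh libraries, where CPM is the count scaled to library size by the trimmed mean of M values (TMM). That is 25.3% of the GFPsh level with FOSL1sh3 and 26.1% with FOSL1sh10, with log2 fold changes of -1.98 (adjusted p = 1.2e-05) and -1.94 (adjusted p = 1.03e-05). No difference in FOSL1 between the hairpins was detected (log2 fold change of FOSL1sh3 over FOSL1sh10 -0.05, SE 0.195, adjusted p = 0.9). Libraries held 6893026 to 10604251 counts, so that 3 counts, the floor used here, equal 0.283 to 0.435 CPM. A gene was called at an adjusted p under 0.05 in edgeR's quasi-likelihood test, adjusted by Benjamini-Hochberg over all 12814 genes. By that rule 10.9% of genes were called between FOSL1sh3 and GFPsh, 5.28% between FOSL1sh10 and GFPsh and 12.7% between FOSL1sh3 and FOSL1sh10. Of those calls 48%, 59.3% and 45.1% were higher in the group named earlier in each pair. Scaling by library totals alone turned these shares into 34%, 77.4% and 17.6% and shifted the median log2 change of all genes to -0.06, 0.11 and -0.17, so small changes should be read against those shifts. Bile duct markers summed to 1.21e+04 to 1.35e+04 CPM in FOSL1sh3 libraries, 1.08e+04 to 1.28e+04 CPM in FOSL1sh10 libraries and 1.08e+04 to 1.17e+04 CPM in GFPsh libraries, with 8 of 10 expressed enough to test, and CFTR and SPP1 nearly absent (2 counts and 1 count in all). Of these markers KRT7, a bile duct keratin, was called higher with FOSL1sh10 over GFPsh (log2 0.71, adjusted p = 0.00456, lost in none of 15 alternative analyses) and with FOSL1sh3 over GFPsh (0.46, adjusted p = 0.0432, lost in 12 of them, 0.0507 to 0.132, among them without any single GFPsh or FOSL1sh10 library or without FOSL1sh3 replicate 1 or 3). With FOSL1sh3 over FOSL1sh10 the keratin KRT19 was called higher (0.5, adjusted p = 0.0243), and the adhesion molecule EPCAM (-0.49, adjusted p = 0.0343) and the transcription factor SOX9 (-0.8, adjusted p = 0.00189) lower. The KRT19 call was lost in 5 alternatives (0.0541 to 0.123), among them without FOSL1sh3 replicate 1 or 3 or FOSL1sh10 replicate 1 or 2, and the EPCAM call in 7 (0.0575 to 0.179), among them without any single FOSL1sh10 library, FOSL1sh3 replicate 1 or 3 or GFPsh replicate 1. The part of these markers in the mucin results was not tested.

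The mucins made up a small part of the RNA, and MUC1 was most of it. The 10 genes together held 0.0532 ± 0.00892% of all counts in FOSL1sh3 libraries, 0.0386 ± 0.00363% in FOSL1sh10 libraries and 0.0346 ± 0.00198% in GFPsh libraries (SD, n = 3 each). MUC1 alone supplied 74 to 76.3% of those counts with FOSL1sh3, 67 to 68% with FOSL1sh10 and 64.8 to 66.1% with GFPsh. To compare levels between genes, CPM was divided by exon length, with the reservation that the library protocol (MARS-seq) tags transcripts near their 3' ends, so that counts need not grow with length. On that scale TFF1 reached 83.3, 55.6 and 83.1 CPM per kb of exon in FOSL1sh3, FOSL1sh10 and GFPsh libraries, and MUC1 reached 89.3, 51.9 and 48.4 CPM per kb in the same order. TFF1, MUC1 and TFF2 stood at percentiles 94.5, 93.7 and 90.6 of the tested genes over all libraries. MUC13 stood at percentile 49.7, MUC4 at 21.7 and MUC5AC at 12.8, and the lowest tested were MUC16 at 3.27 and MUC5B at 1.8. The order rests on the division by length. Per kb, TFF1 and MUC1 had 83.1 ± 2.18 and 48.4 ± 3.36 CPM per kb with GFPsh, whereas undivided CPM put MUC1 above TFF1 in all 3 groups (with GFPsh 45.8 ± 1.2 CPM for TFF1 and 229 ± 15.8 CPM for MUC1, SD, n = 3). The low percentiles of the long mucins rest on the same division.

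**Figure D1:**
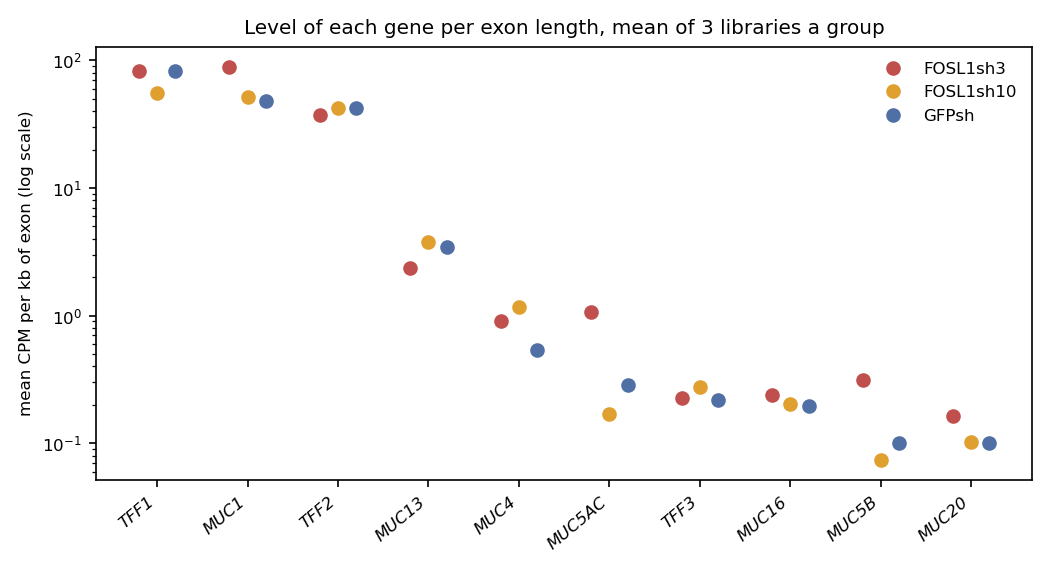
Mean level of each of the 10 genes in CPM per kb of exon (log axis), 1 point per group of 3 libraries, with FOSL1sh3, FOSL1sh10 and GFPsh from left to right. TFF1, MUC1 and TFF2 lie above 37 CPM per kb in every group, and MUC5AC spans 1.06 in FOSL1sh3 libraries, 0.169 in FOSL1sh10 libraries and 0.287 in GFPsh libraries.

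Both secreted gel-forming mucins were higher with FOSL1sh3 than with GFPsh, and neither was called between FOSL1sh10 and GFPsh. MUC5AC, the main gel-forming mucin of the stomach surface and the airways (ENSG00000215182.8, chr11:1157953-1201138 on the plus strand, hg38), had 16.3, 17.7 and 21.6 CPM in FOSL1sh3 libraries, 2.85, 4.29 and 1.73 CPM in FOSL1sh10 libraries and 4.13, 5.95 and 4.95 CPM in GFPsh libraries. Every FOSL1sh3 library lay above every other library, while FOSL1sh10 and GFPsh libraries overlapped. With 3 libraries a group, such separation can arise without a true difference. The share of all tested genes that separate was not counted, so separation is only a description here and below. The log2 fold change was 1.88 with FOSL1sh3 over GFPsh (SE 0.263, 95% interval 1.32 to 2.43, adjusted p = 0.000304), a 3.67-fold difference. With FOSL1sh10 over GFPsh it was -0.78 (SE 0.302, interval -1.41 to -0.14, adjusted p = 0.155), which was not called although the interval of that single gene lies below 0. The direct comparison of FOSL1sh3 over FOSL1sh10 gave 2.65 (SE 0.281, adjusted p = 1.03e-05), the largest difference among the 8 tested genes in any of the 3 comparisons. In counts, MUC5AC had 159, 123 and 170 reads with FOSL1sh3, 20, 38 and 17 with FOSL1sh10 and 30, 53 and 45 with GFPsh.

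MUC5B, a gel-forming mucin of airways and gallbladder, lies 21927 bases downstream of MUC5AC (ENSG00000117983.17, chr11:1223066-1262172, plus strand). It had 3.99, 6.62 and 6.85 CPM in FOSL1sh3 libraries, 2.13, 0.564 and 1.42 CPM in FOSL1sh10 libraries and 0.826, 2.47 and 2.31 CPM in GFPsh libraries. The FOSL1sh3 libraries again lay above all others and the other groups overlapped. These are small counts, between 5 and 54 reads a library. The log2 fold change was 1.59 with FOSL1sh3 over GFPsh (SE 0.421, interval 0.71 to 2.48, adjusted p = 0.022), or 3.02-fold. That call was lost without FOSL1sh3 replicate 3 (adjusted p = 0.0783) and without GFPsh replicate 1 (adjusted p = 0.0925). FOSL1sh10 over GFPsh gave -0.5 (SE 0.486, interval -1.52 to 0.52, adjusted p = 0.634), and FOSL1sh3 over FOSL1sh10 gave 2.1 (SE 0.443, adjusted p = 0.00488). MUC5AC and MUC5B are related genes with long repeats, and reads that map to both would not be counted under the options shown in the file headers, which makes their absolute levels uncertain.

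MUC2, the intestinal gel-forming mucin, is the other tested gel-forming mucin of the same cluster and ends 47441 bases before MUC5AC. It had 3.58, 3.89 and 5.08 CPM in FOSL1sh3 libraries, 1.71, 1.92 and 1.73 CPM in FOSL1sh10 libraries and 1.51, 2.25 and 1.1 CPM in GFPsh libraries, so it too was higher in each FOSL1sh3 library than in any other. Its log2 fold change was 1.36 with FOSL1sh3 over GFPsh (SE 0.359, adjusted p = 0.022), 0.14 with FOSL1sh10 over GFPsh (adjusted p = 0.895) and 1.22 with FOSL1sh3 over FOSL1sh10 (SE 0.354, adjusted p = 0.0301). The call against GFPsh was lost without GFPsh replicate 1, without GFPsh replicate 3 or without FOSL1sh3 replicate 3 (adjusted p 0.0764 to 0.097). The call against FOSL1sh10 was lost when library totals alone set the scale, without FOSL1sh3 replicate 3 and without any single FOSL1sh10 library (adjusted p 0.0517 to 0.111). MUC6, a gastric gland mucin of that cluster, had 12, 4 and 13 counts in FOSL1sh3 libraries, 6, 2 and 5 in FOSL1sh10 libraries and 4, 9 and 6 in GFPsh libraries, which was too low to test. The gene on the far side of MUC5B, TOLLIP, an adaptor of Toll-like receptor signalling 12199 bases away, averaged 44 CPM with FOSL1sh3, 35.9 CPM with FOSL1sh10 and 33.3 CPM with GFPsh and was not called for FOSL1sh3 over GFPsh (log2 0.4, SE 0.138, adjusted p = 0.0672).

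**Figure D2:**
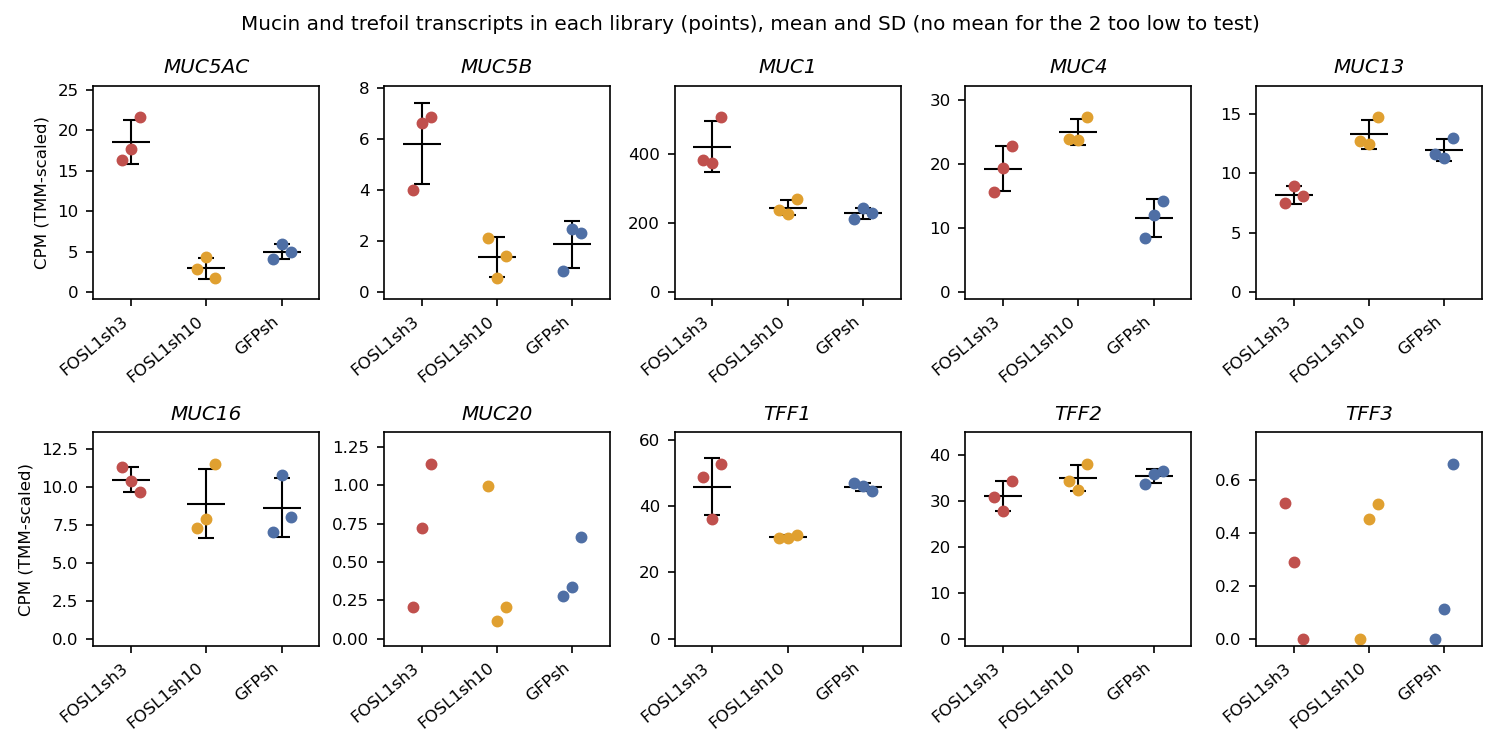
TMM-scaled CPM of each of the 10 genes in the 9 libraries (points), with FOSL1sh3, FOSL1sh10 and GFPsh from left to right; horizontal lines and bars are the mean and SD of 3 libraries, left out for MUC20 and TFF3, which were too low to test. MUC5AC, MUC5B and MUC1 are highest in every FOSL1sh3 library, MUC4 is lowest in every GFPsh library and TFF1 is lowest in every FOSL1sh10 library.

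Among the transmembrane mucins, MUC1 was higher with FOSL1sh3 than with FOSL1sh10 or GFPsh, and MUC4 was higher with either hairpin than with GFPsh. MUC1, a heavily glycosylated apical protein whose cytoplasmic tail binds signalling proteins (ENSG00000185499.16, chr1:155185824-155192916, minus strand), had 384, 375 and 506 CPM in FOSL1sh3 libraries, 237, 227 and 270 CPM in FOSL1sh10 libraries and 212, 244 and 229 CPM in GFPsh libraries. All FOSL1sh3 libraries were above all others, and FOSL1sh10 overlapped GFPsh. The log2 fold change was 0.88 with FOSL1sh3 over GFPsh (SE 0.146, interval 0.58 to 1.19, adjusted p = 0.00124), or 1.84-fold, and 0.78 with FOSL1sh3 over FOSL1sh10 (SE 0.146, adjusted p = 0.0022). With FOSL1sh10 over GFPsh it was 0.1 (SE 0.146, interval -0.21 to 0.4, adjusted p = 0.776). In bulk RNA, a change in the number of cells that make MUC1 and a change in MUC1 RNA per cell cannot be told apart, and the same holds for every gene here.

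MUC4, a very large membrane mucin that binds the receptor ERBB2 (ENSG00000145113.21, chr3:195746765-195812277, minus strand), had 15.7, 19.4 and 22.8 CPM in FOSL1sh3 libraries, 23.9, 23.7 and 27.3 CPM in FOSL1sh10 libraries and 8.39, 12.1 and 14.2 CPM in GFPsh libraries. Every knockdown library was above every GFPsh library. The log2 fold change was 1.1 with FOSL1sh10 over GFPsh (SE 0.206, interval 0.67 to 1.54, adjusted p = 0.00299), or 2.15-fold, and 0.73 with FOSL1sh3 over GFPsh (SE 0.208, interval 0.29 to 1.16, adjusted p = 0.0317), or 1.66-fold. These comparisons share the GFPsh libraries. The FOSL1sh3 call was lost without GFPsh replicate 1 (adjusted p = 0.143), GFPsh replicate 2 (0.0682) or FOSL1sh3 replicate 3 (0.122), when library totals alone set the scale (0.0506) and when only the compared groups were fitted (0.061). Between the hairpins the log2 difference of FOSL1sh3 over FOSL1sh10 was -0.38 (SE 0.2, interval -0.8 to 0.04, adjusted p = 0.229), with every FOSL1sh3 library below every FOSL1sh10 library but no call.

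MUC13, a transmembrane mucin of the gut surface (ENSG00000173702.7, chr3:124905442-124953819, minus strand), was lower with FOSL1sh3 than with FOSL1sh10. It had 7.47, 8.92 and 8.12 CPM in FOSL1sh3 libraries, 12.7, 12.5 and 14.7 CPM in FOSL1sh10 libraries and 11.6, 11.3 and 13 CPM in GFPsh libraries. FOSL1sh3 libraries lay below all others. The call was made against FOSL1sh10, with a log2 fold change of -0.71 (SE 0.195, interval -1.12 to -0.3, adjusted p = 0.0233), and was lost without FOSL1sh3 replicate 1 (adjusted p = 0.0748) or 3 (0.0505) and without FOSL1sh10 replicate 2 (0.0611) or 3 (0.105). Against GFPsh the value was -0.55 (SE 0.196, interval -0.96 to -0.14, adjusted p = 0.0765), which was not called, and FOSL1sh10 over GFPsh gave 0.16 (SE 0.189, adjusted p = 0.72).

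MUC16, the largest transmembrane mucin and a known ligand of mesothelin (ENSG00000181143.15, chr19:8848844-8981342, minus strand), had 11.3, 10.4 and 9.65 CPM in FOSL1sh3 libraries, 7.26, 7.9 and 11.5 CPM in FOSL1sh10 libraries and 7.02, 10.8 and 8.03 CPM in GFPsh libraries. The 3 groups overlapped and nothing was called. The interval for FOSL1sh3 over GFPsh was -0.22 to 0.76 and that for FOSL1sh10 over GFPsh was -0.44 to 0.54 on the log2 scale. Changes anywhere within those bounds remain possible. MUC20, a membrane-associated mucin known from kidney (ENSG00000176945.16, chr3:195720882-195741123, plus strand), had 2, 5 and 9 counts in FOSL1sh3 libraries, 7, 1 and 2 in FOSL1sh10 libraries and 2, 3 and 6 in GFPsh libraries. Those 37 counts were too few to test. They are uncertain besides, because 42.8% of MUC20's exon bases (1820 of 4249) are also exons of the same-strand gene MUC20-OT1, which had 1132 counts and averaged 18 CPM with FOSL1sh3, 14.7 CPM with FOSL1sh10 and 12.6 CPM with GFPsh.

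Since FOSL1 acts through AP-1, the sequence before the start site was read for the genes that have an entry in the RefSeq promoter table (GRCh38.p14): MUC1, MUC4, MUC13 and MUC16. The windows of MUC1, whose RNA is the most abundant of the mucins, and of MUC13, which holds both motifs searched, are shown 5' to 3' with motif matches in capitals. The MUC1 window is chr1:155192917-155193165 (minus strand, ending 1 base before the gene's 5' end in the count tables), and the MUC13 window is chr3:124934752-124935001 (minus strand, at a RefSeq start 19068 bases inside the gene as the tables draw it).
MUC1: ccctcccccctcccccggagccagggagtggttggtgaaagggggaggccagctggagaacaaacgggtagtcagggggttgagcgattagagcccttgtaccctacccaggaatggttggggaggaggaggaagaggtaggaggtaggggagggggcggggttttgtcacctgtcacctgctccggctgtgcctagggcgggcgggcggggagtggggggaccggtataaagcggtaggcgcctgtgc
MUC13: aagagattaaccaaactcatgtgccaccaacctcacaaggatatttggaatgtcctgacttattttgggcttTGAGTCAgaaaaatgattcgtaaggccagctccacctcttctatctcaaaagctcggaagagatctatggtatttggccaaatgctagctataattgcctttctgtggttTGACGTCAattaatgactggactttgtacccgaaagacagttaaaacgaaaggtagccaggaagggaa
The motifs were TGANTCA, a loose AP-1 type pattern with any base at N, and the related cyclic-AMP site TGACGTCA. Each pattern reads the same on both strands. No match of either contains a match of the other. In the 250 bases before the start, 6.57% of 35116 promoters held TGANTCA and 1.65% held TGACGTCA. MUC13 held TGAGTCA at bases 178 to 172 before its start and TGACGTCA at bases 68 to 61. MUC1 and MUC4 held neither, and MUC16 held TGAATCA in the window of 1 of its starts, at bases 136 to 130. All 250 bases of the MUC4 window lie in exons of MUC4 as counted, at a start 348 bases inside the gene. The MUC16 start with the match lies 29067 bases outside the gene as counted, and its other start 84409 bases outside. These windows need not be the promoters of the RNA counted here. A match is a run of letters in this window and says nothing of binding, which was not measured.

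Of the trefoil factors TFF1 was called and TFF2 was not. TFF1, a peptide of the stomach surface that accompanies MUC5AC in mucus (ENSG00000160182.2, chr21:42362282-42366594, minus strand), had 48.8, 36.1 and 52.7 CPM in FOSL1sh3 libraries, 30.3, 30.2 and 31.4 CPM in FOSL1sh10 libraries and 46.9, 45.9 and 44.5 CPM in GFPsh libraries. Every FOSL1sh10 library was below every other library, while the FOSL1sh3 libraries spread around those of GFPsh. The log2 fold change was -0.58 with FOSL1sh10 over GFPsh (SE 0.153, interval -0.9 to -0.26, adjusted p = 0.0317), or 0.67-fold, and 0.58 with FOSL1sh3 over FOSL1sh10 (SE 0.153, adjusted p = 0.0187). The call against GFPsh was lost without any single library of either group or when library totals alone set the scale (adjusted p 0.0732 to 0.111), and the call between hairpins was lost without any single FOSL1sh10 library, without FOSL1sh3 replicate 1 or 3 or with that scale (0.0539 to 0.0774). FOSL1sh3 over GFPsh gave 0.01 (SE 0.151, interval -0.31 to 0.32, adjusted p = 0.987).

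TFF2, the trefoil peptide of gastric gland mucus 11153 bases from TFF1 (ENSG00000160181.8, chr21:42346357-42351128, minus strand), had 30.9, 27.8 and 34.3 CPM in FOSL1sh3 libraries, 34.3, 32.4 and 38 CPM in FOSL1sh10 libraries and 33.7, 35.8 and 36.5 CPM in GFPsh libraries. The groups overlapped and no comparison was called, with an interval of -0.5 to 0.12 for FOSL1sh3 over GFPsh and -0.33 to 0.29 for FOSL1sh10 over GFPsh. The ratio of TFF1 to TFF2 counts, which no scaling of libraries can alter, was 1.58, 1.3 and 1.54 with FOSL1sh3, 0.884, 0.934 and 0.826 with FOSL1sh10 and 1.39, 1.28 and 1.22 with GFPsh. The FOSL1sh10 ratios lay below all others. TFF3, the trefoil peptide of intestinal goblet cells (ENSG00000160180.15, chr21:42311667-42315651, minus strand), had 5, 2 and 0 counts in FOSL1sh3 libraries, 0, 4 and 5 in FOSL1sh10 libraries and 0, 1 and 6 in GFPsh libraries, and was too low to test.

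Read by group, 4 of the 8 tested genes were called between FOSL1sh3 and GFPsh, all 4 higher with FOSL1sh3 (MUC1, MUC4, MUC5AC and MUC5B), against 5.21% of all tested genes called higher and 5.65% called lower. Between FOSL1sh10 and GFPsh, MUC4 was called higher and TFF1 lower, where 3.13% of all tested genes were higher and 2.15% lower. Between FOSL1sh3 and FOSL1sh10, 5 were called, with MUC1, MUC5AC, MUC5B and TFF1 higher and MUC13 lower in FOSL1sh3, where 5.74% of all tested genes were higher and 6.99% lower. The genes were chosen with earlier results of these data known, and MUC5AC and MUC5B are related neighbours. These counts therefore describe the calls and do not test for an excess. The 4 tested transmembrane mucins had a median log2 change of 0.5 with FOSL1sh3 over GFPsh and 0.13 with FOSL1sh10 over GFPsh, against 0.01 and 0 for all genes. With FOSL1sh3 over GFPsh they did not go 1 way: MUC1 (0.88), MUC4 (0.73) and MUC16 (0.27) lay above 0 and MUC13 (-0.55) below. For FOSL1sh3 over FOSL1sh10 their median was -0.08. The calls for MUC5AC and MUC1 with FOSL1sh3, against GFPsh and against FOSL1sh10, for MUC5B with FOSL1sh3 against FOSL1sh10, and for MUC4 with FOSL1sh10 against GFPsh held in all 15 alternatives tried.

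**Figure D3:**
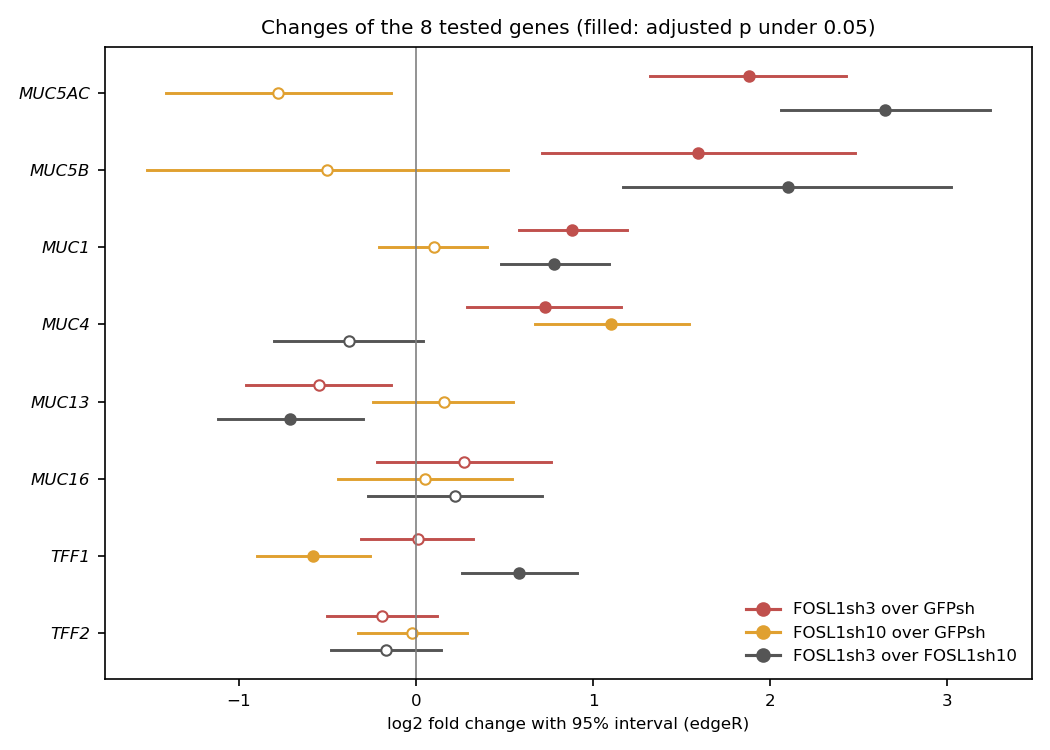
Log2 fold changes (points) with 95% intervals (lines) of the 8 tested genes from edgeR, for FOSL1sh3 over GFPsh, FOSL1sh10 over GFPsh and FOSL1sh3 over FOSL1sh10 from top to bottom within each gene; filled points have an adjusted p under 0.05. MUC5AC, MUC5B and MUC1 lie right of 0 for FOSL1sh3 over GFPsh (1.88, 1.59 and 0.88), and MUC4 lies right of 0 for both hairpins (0.73 and 1.1).

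The other mucins were mostly silent. Of 14 listed, 10 had any count and 4 could be tested. Besides MUC2, the membrane mucin MUC21 was called, with 13, 16 and 27 counts in FOSL1sh3 libraries, 1, 2 and 5 in FOSL1sh10 libraries and 30, 24 and 43 in GFPsh libraries. It fell with FOSL1sh10, with a log2 fold change of -3.58 over GFPsh (SE 0.538, adjusted p = 0.000446). FOSL1sh3 over FOSL1sh10 gave 2.86 (SE 0.568, adjusted p = 0.00323), while FOSL1sh3 over GFPsh gave -0.72 (SE 0.402, adjusted p = 0.262), which was not called. FOSL1sh10 replicates 1 and 2 lay below the floor of 3 counts, so the sizes of the -3.58 and 2.86 changes are uncertain.

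Of the GalNAc transferases, which attach the initial sugar of a mucin chain, 11 of 17 were tested. Against GFPsh 0 were higher with either hairpin in edgeR at the adjusted threshold, at an unadjusted p under 0.05, in DESeq2 or in limma-voom. With FOSL1sh3 3 were lower (median log2 of the list -0.19) and with FOSL1sh10 2 were lower (median -0.22), against medians of 0.01 and 0 for all genes. Of all tested genes 5.21% were called higher and 5.65% lower with FOSL1sh3 over GFPsh, and 3.13% and 2.15% with FOSL1sh10 over GFPsh. With FOSL1sh3 over FOSL1sh10 1 of the list was higher (GALNT11, log2 0.6, adjusted p = 0.0286) and 1 lower (GALNT5, -0.72, adjusted p = 0.00936). There 5.74% of all tested genes were higher and 6.99% lower. The GALNT11 call was lost with library totals alone, without FOSL1sh3 replicate 2 or 3 and without FOSL1sh10 replicate 1 or 2 (0.0525 to 0.113), and the GALNT5 call without FOSL1sh10 replicate 2 (0.073). GALNT5 had 18, 17 and 16.8 CPM in FOSL1sh3 libraries, 24.5, 32.4 and 28.3 CPM in FOSL1sh10 libraries and 46.2, 39.9 and 34.9 CPM in GFPsh libraries, all knockdown libraries being below all GFPsh libraries. Its log2 fold change was -1.22 with FOSL1sh3 over GFPsh (SE 0.167, adjusted p = 0.000246), and -0.5 with FOSL1sh10 over GFPsh (adjusted p = 0.0803), which was not called. GALNT3 averaged 8.14 CPM with FOSL1sh3, 9.08 CPM with FOSL1sh10 and 17.4 CPM with GFPsh, and was called lower with FOSL1sh3 (-1.08, adjusted p = 0.0156) and with FOSL1sh10 (-0.93, adjusted p = 0.0438). Its FOSL1sh3 call was lost without GFPsh replicate 1 or FOSL1sh3 replicate 3 (adjusted p 0.058 to 0.105), and its FOSL1sh10 call in 7 alternatives (0.0631 to 0.228), among them leaving out any single FOSL1sh10 library, GFPsh replicate 1 or GFPsh replicate 2. GALNT14 fell with FOSL1sh3 (-0.64, adjusted p = 0.0114, but 0.051 without GFPsh replicate 3), and GALNT1 fell with FOSL1sh10 (-0.76, adjusted p = 0.00971, but 0.0554 to 0.0562 without GFPsh replicate 1 or FOSL1sh10 replicate 2).

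Among enzymes that extend and cap the sugar chains, 15 of 20 were tested. With FOSL1sh3 over GFPsh none was called higher and 2 lower, where 5.21% of all tested genes were higher and 5.65% lower. With FOSL1sh10 over GFPsh none was higher and 1 lower, where 3.13% of all tested genes were higher and 2.15% lower. At an unadjusted p under 0.05 there were 0 higher and 4 lower with FOSL1sh3, and 0 higher and 3 lower with FOSL1sh10, and DESeq2 and limma-voom also called 0 higher. With FOSL1sh3 over FOSL1sh10 5.74% of all tested genes were called higher and 6.99% lower. Of this list 4 were called higher (B3GNT3, B4GALNT3, ST3GAL4 and ST6GALNAC4) and 2 lower (C1GALT1 and CHST4), also in DESeq2 and limma-voom. Of those calls, that of ST6GALNAC4 was lost in none of the 15 alternatives (log2 1.29, adjusted p = 0.000713). The others were each lost in 2 to 10 of them, with adjusted p from 0.0501 to 0.198, in each case without at least 1 FOSL1sh3 and at least 1 FOSL1sh10 library. ST3GAL6, a sialyltransferase, had 0.512, 0.863 and 1.4 CPM in FOSL1sh3 libraries, 1.28, 1.47 and 2.24 CPM in FOSL1sh10 libraries and 4.27, 2.92 and 6.05 CPM in GFPsh libraries, and fell by 2.27 on the log2 scale with FOSL1sh3 over GFPsh (SE 0.442, adjusted p = 0.00386). CHST4, a sulfotransferase acting on mucin-type chains, averaged 1.89 CPM with FOSL1sh3, 4.28 CPM with FOSL1sh10 and 5.34 CPM with GFPsh, and fell by 1.48 with FOSL1sh3 over GFPsh (SE 0.307, adjusted p = 0.00564). ST6GALNAC4, which adds sialic acid to short chains, averaged 36.8 CPM with FOSL1sh3, 14.9 CPM with FOSL1sh10 and 37.6 CPM with GFPsh, and fell by 1.32 with FOSL1sh10 over GFPsh (SE 0.209, adjusted p = 0.000698). These calls of ST3GAL6, CHST4 and ST6GALNAC4 against GFPsh were lost in none of the 15 alternatives.

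Of 13 transcription factors known from goblet and other mucus-making cells 8 were tested. With FOSL1sh3 over GFPsh 0 were called higher and 1 lower, where 5.21% of all tested genes were higher and 5.65% lower. With FOSL1sh10 over GFPsh 1 was higher and 0 lower, where 3.13% of all tested genes were higher and 2.15% lower. At an unadjusted p under 0.05 there were 0 higher and 4 lower with FOSL1sh3, and 2 higher and 0 lower with FOSL1sh10. DESeq2 and limma-voom also called 0 higher with FOSL1sh3 and 0 lower with FOSL1sh10. With FOSL1sh3 over FOSL1sh10 the list had 0 called higher, also in DESeq2, limma-voom and at an unadjusted p under 0.05, and 4 called lower (FOXA1, KLF4, GATA6 and SOX9). There 5.74% of all tested genes were called higher and 6.99% lower. The KLF4 and SOX9 calls between hairpins were lost in none of the 15 alternatives. That of GATA6 was lost without FOSL1sh3 replicate 1 or FOSL1sh10 replicate 2 or 3 (adjusted p 0.081 to 0.0854). That of FOXA1 was lost without FOSL1sh3 replicate 1 or 3, FOSL1sh10 replicate 2 or 3 or GFPsh replicate 1, and with only the compared groups fitted (0.0501 to 0.208). FOXA1 averaged 8.11 CPM with FOSL1sh3, 14.7 CPM with FOSL1sh10 and 14.5 CPM with GFPsh. Its call with FOSL1sh3 (-0.86, SE 0.267, adjusted p = 0.0462) was lost in 8 of 15 alternatives (adjusted p 0.0548 to 0.165), among them leaving out any single GFPsh library or FOSL1sh3 replicate 1 or 3. KLF4, a factor of differentiated surface epithelium, had 37.4, 52.1 and 29.8 CPM in FOSL1sh3 libraries, 77.5, 99.5 and 90.2 CPM in FOSL1sh10 libraries and 49.4, 40.2 and 41.8 CPM in GFPsh libraries, and rose by 1.03 on the log2 scale with FOSL1sh10 over GFPsh (SE 0.177, adjusted p = 0.00147).

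Of 14 proteins that fold mucins or accompany them in mucus 4 were tested, 0 were called with FOSL1sh3 over GFPsh in edgeR, DESeq2 or limma-voom (1 at an unadjusted p under 0.05), and 2 were lower with FOSL1sh10. Of all tested genes 5.21% were called higher and 5.65% lower with FOSL1sh3 over GFPsh, and 3.13% and 2.15% with FOSL1sh10 over GFPsh. For FOSL1sh3 over FOSL1sh10 those shares were 5.74% and 6.99%. AGR2, the disulfide isomerase needed to fold gel-forming mucins, had 151, 143 and 93.6 CPM in FOSL1sh3 libraries, 109, 71.3 and 112 CPM in FOSL1sh10 libraries and 162, 158 and 205 CPM in GFPsh libraries. It fell with FOSL1sh10 (-0.84, SE 0.193, adjusted p = 0.0136), a call lost without GFPsh replicate 3 or FOSL1sh10 replicate 2 (0.0759 to 0.0848). ERN2, a stress sensor of mucus-making cells, averaged 11.2 CPM with FOSL1sh3, 6.58 CPM with FOSL1sh10 and 12.1 CPM with GFPsh. Its call with FOSL1sh10 (-0.88, adjusted p = 0.0356) was lost in 7 alternatives (0.05 to 0.181), among them leaving out any single FOSL1sh10 library, GFPsh replicate 2 or GFPsh replicate 3. With FOSL1sh3 over FOSL1sh10 ERN2 alone of the list was called, higher (0.76, adjusted p = 0.0446), and that call was lost in 8 alternatives (0.0534 to 0.165), among them without any single FOSL1sh10 library, FOSL1sh3 replicate 2 or 3 or GFPsh replicate 3.

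Among binding partners and enzymes that shed mucins, 10 of 12 were tested. With FOSL1sh3 over GFPsh 2 were called higher and 1 lower, and with FOSL1sh3 over FOSL1sh10 1 higher and 1 lower. With FOSL1sh10 over GFPsh 0 were called in edgeR, DESeq2 or limma-voom, and 1 had an unadjusted p under 0.05. Of all tested genes 5.21% were called higher and 5.65% lower with FOSL1sh3 over GFPsh, and 3.13% and 2.15% with FOSL1sh10 over GFPsh. For FOSL1sh3 over FOSL1sh10 those shares were 5.74% and 6.99%. MSLN, which encodes mesothelin, the surface protein that MUC16 binds, had 103, 117 and 132 CPM in FOSL1sh3 libraries, 69.3, 62.9 and 71.6 CPM in FOSL1sh10 libraries and 53.3, 76.9 and 61.8 CPM in GFPsh libraries. It rose with FOSL1sh3 (log2 0.87 over GFPsh, SE 0.153, adjusted p = 0.002, and 0.79 over FOSL1sh10, adjusted p = 0.00288), while MUC16 itself was not called. ERBB2, the receptor that MUC4 binds, averaged 26.1 CPM with FOSL1sh3, 17.1 CPM with FOSL1sh10 and 15.1 CPM with GFPsh. Its call with FOSL1sh3 (0.78, SE 0.231, adjusted p = 0.0362) was lost without GFPsh replicate 1 or 3 or any single FOSL1sh3 library (0.0559 to 0.153). CXCR4, a receptor reported to respond to TFF2, averaged 1.81 CPM with FOSL1sh3, 7.01 CPM with FOSL1sh10 and 4.09 CPM with GFPsh, with a log2 change of -1.94 for FOSL1sh3 over FOSL1sh10 (SE 0.353, adjusted p = 0.00181). Its call with FOSL1sh3 over GFPsh (-1.18, adjusted p = 0.0455) was lost in 11 of 15 alternatives (0.0547 to 0.194), including without any single FOSL1sh3 or FOSL1sh10 library and without GFPsh replicate 2 or 3.

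**Figure D4:**
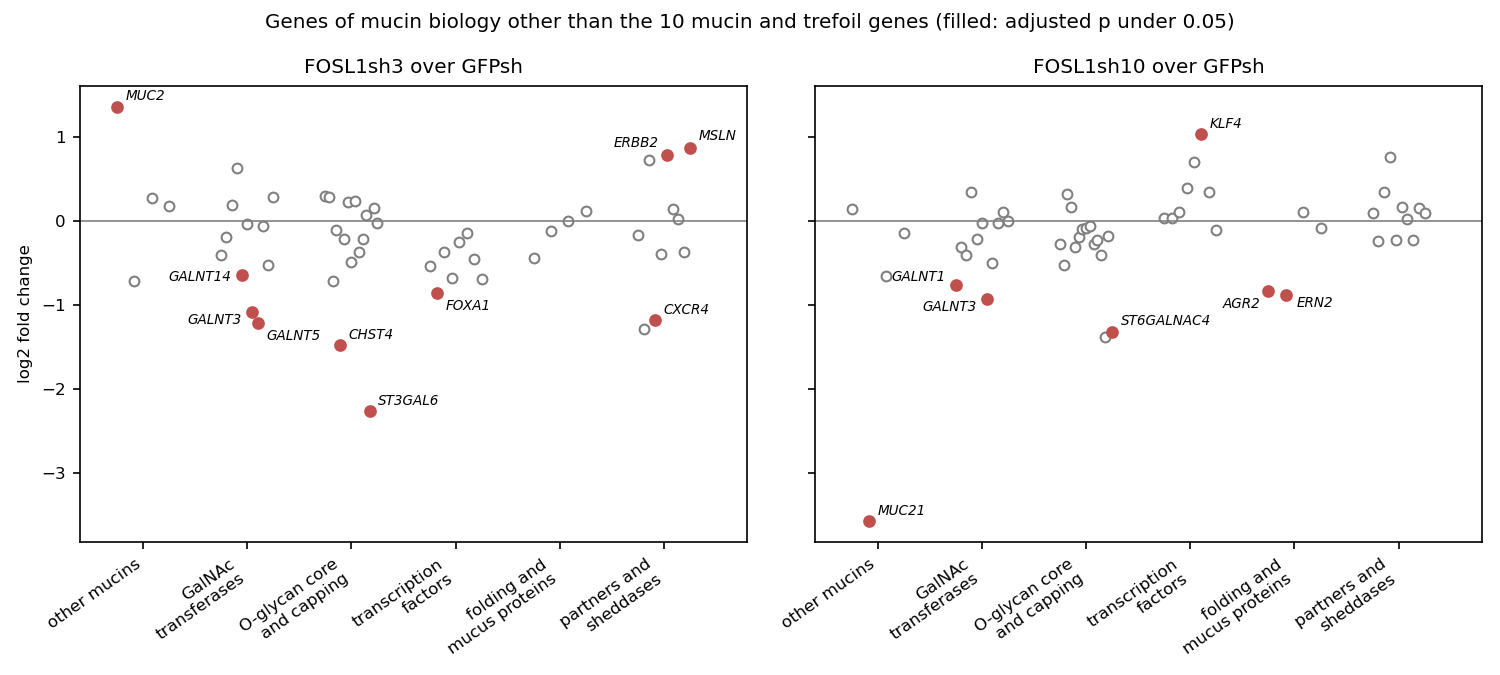
Log2 fold changes over GFPsh of the tested genes of 6 lists, 1 point a gene, for FOSL1sh3 (left) and FOSL1sh10 (right); filled, named points have an adjusted p under 0.05. No GalNAc transferase or chain-extending enzyme is called above 0 on either side, and MUC2 (1.36, FOSL1sh3) and MUC21 (-3.58, FOSL1sh10) are the called mucins.

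Most markers of other epithelia and of other cell types were too low to test. Of 11 gastric and intestinal markers 2 were tested (CDX2 and VIL1), 5 were at 0 in all libraries (LIPF, ATP4A, CDH17, FABP1 and FABP2), and the list summed to 4.6 to 8.29 CPM with FOSL1sh3, 5.39 to 8.68 CPM with FOSL1sh10 and 5.83 to 7.97 CPM with GFPsh. Hepatocyte markers summed to 8.2 to 11.6 CPM, 13.8 to 17.6 CPM and 6.49 to 7.43 CPM in the same order, and SERPINA1 was the 1 marker of 11 tested, with ALB at 1 count in all and APOA2 and CYP3A4 at 0. SERPINA1, which encodes the protease inhibitor alpha-1 antitrypsin, averaged 9.09 ± 1.59 CPM with FOSL1sh3, 15 ± 2.19 CPM with FOSL1sh10 and 6.22 ± 0.815 CPM with GFPsh (SD, n = 3 each). It was called higher with FOSL1sh10 over GFPsh (log2 1.27, adjusted p = 0.00141, lost in none of the 15 alternatives). It was called lower with FOSL1sh3 over FOSL1sh10 (-0.71, adjusted p = 0.0323), a call lost without FOSL1sh3 replicate 2 or 3, FOSL1sh10 replicate 2 or 3 or with only the compared groups fitted (0.0523 to 0.161). Leukocyte markers (1 of 10 tested, CD14; CD3E, MS4A1 and CD68 among those at 0) summed to 6.45 to 7.77, 6.12 to 9.45 and 3.14 to 5.17 CPM, and those of fibroblasts and endothelium (1 of 10 tested, COL1A1; COL3A1, DCN, LUM and PDGFRB at 0) to 4.3 to 8, 8.11 to 9.66 and 2.92 to 4.73 CPM. CD14 averaged 6.1, 6.99 and 3.81 CPM in the same order and COL1A1 averaged 4.71, 5.41 and 3.13 CPM, and neither was called. PECAM1 and CDH5, endothelial markers too low to test, were both highest with FOSL1sh10. In the same order PECAM1 averaged 0.47, 1.78 and 0.573 CPM, and CDH5 averaged 0.311, 1.47 and 0.138 CPM. Where these sums or markers differed between groups, their part in the mucin results was not tested.

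Finally, the 3 genes whose log2 CPM over the 9 libraries correlated best with each tested gene were listed, as a description over libraries that share 3 groups. For MUC5AC these were GPC1-AS1 (r = 0.978), RGCC (0.969) and MECR (0.968). RGCC averaged 139 CPM with FOSL1sh3, 45 CPM with FOSL1sh10 and 67.9 CPM with GFPsh. For MUC1 they included VASN (0.985) and IP6K2 (0.982), and for MUC5B they were TALDO1 (0.985), KLHDC2 (0.971) and RGL3 (0.957). For MUC4 they were LTBP3 (0.976), CNNM4 (0.973) and ABL2 (0.965), all lowest in GFPsh. For MUC13 they were AP3B1 (0.988), HSPA5 (0.98) and MTOR (0.976), each lowest with FOSL1sh3, as MTOR shows with 12.4 CPM in FOSL1sh3 libraries, 51.1 CPM in FOSL1sh10 libraries and 46.3 CPM in GFPsh libraries. For TFF1 they were CYP4F12 (0.977), TICRR (0.97) and VARS2 (0.964). MUC16 (WDR18, RPL15P16 and CLCN5, 0.956 to 0.931) and TFF2 (HSD17B7P2, METTL2B and SLC2A8, 0.952 to 0.93) had the weakest best matches.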

How the data were processed

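RNA of 9 libraries of EGI-1 cells was sequenced by a low-input protocol (MARS-seq), per the labels' protocols. The authors deposited 1 table of raw read counts per gene for each library, not normalized, together with the gene's exon length in bases. Counting was done with featureCounts 1.6.0 over exons of GENCODE release 28, with no option for strand or multi-mapping reads, per the file headers, so reads of antisense and overlapping genes cannot be separated. FastQC 0.11.5, STAR 2.5.3a, hg38, edgeR and limma are named in the submitters' processing notes. The labels and headers leave unsaid whether molecular identifiers were collapsed, so floors of 3 counts cover counting error only. Each library's group and replicate number was read from its title.

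The count files were joined by gene identifier. Identifiers of 57799 genes matched the reference name table, and 41885 had a symbol. Genes passed edgeR's filterByExpr (minimum count 10, minimum total 15), which kept 12814 of 58381. One edgeR 4.0.16 quasi-likelihood model (R 4.3.3) was fitted to all 9 libraries with group as its term and TMM scaling, and 3 contrasts were tested with Benjamini-Hochberg adjustment over all tested genes. A gene was called at an adjusted p under 0.05. The common biological coefficient of variation was 16.4%. SEs and 95% intervals come from the fitted change and its F statistic. The code was tested on simulated counts. CPM values are TMM-scaled. The 15 alternatives were scaling by library totals alone, DESeq2 1.42.0, limma-voom (limma 3.58.1), no filter on low counts, only the compared groups, the replicate number as a block, and leaving out each of the 9 libraries. With 1 library left out, the remaining pair keeps the spread shared with the other groups.

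The 10 genes, the gene lists and the marker lists were chosen with earlier results of these data known. The text names all 10 genes, list genes called in at least 1 comparison (at most 6 a list), called genes within 100000 bases of the 10, and the 3 genes most alike in pattern, apart from items that are not reported here. MUC6, TOLLIP and MUC20-OT1 fall outside that rule and were named after their values were seen, for their place beside the 10. PECAM1 and CDH5 also fall outside it and were named after their values were seen. No library duplicated another.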

Additional observations from a re-analysis of the deposited data

Results flagged for a closer look

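In the direct test of FOSL1sh3 over FOSL1sh10, 5 of the 8 tested genes were called, where 12.7% of all tested genes were called. The change of those 5 against the shared GFPsh libraries was thus not the same for both hairpins. FOSL1 RNA stood at 25.3% of its GFPsh level with FOSL1sh3 and 26.1% with FOSL1sh10. MUC5AC differed by 2.65 on the log2 scale (3 of 3 FOSL1sh3 libraries above all FOSL1sh10 libraries, 18.5 ± 2.74 against 2.95 ± 1.28 CPM, SD, n = 3 each). MUC5B differed by 2.1 (5.82 ± 1.59 against 1.37 ± 0.786 CPM), MUC1 by 0.78 (421 ± 73 against 245 ± 22.3 CPM) and TFF1 by 0.58 (45.9 ± 8.67 against 30.6 ± 0.656 CPM), each also higher in every FOSL1sh3 library than in any FOSL1sh10 library. MUC13 differed by -0.71, being lower in every FOSL1sh3 library (8.17 ± 0.725 against 13.3 ± 1.24 CPM). How many of all tested genes separate by library in this way was not counted. With 1 library left out, 3 to 5 of the calls held. Over all 15 alternatives the MUC13 call was lost in 4 and the TFF1 call in 6, among them library totals alone for TFF1 (adjusted p = 0.0774). The calls of MUC5AC, MUC5B and MUC1 were lost in none. What sets the hairpins apart was not tested, and an effect of a hairpin cannot be told apart from one of the line that carries it.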

How the results depend on the processing

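Of 360 member values under the 15 alternatives, 323 kept direction and side of the threshold, 24 kept direction but lost the call and 13 changed sign; none gained a call. The 13 were values near 0 that had not been called. TFF1 for FOSL1sh3 over GFPsh became -0.06 with library totals alone, -0.01 with limma-voom, without the low-count filter and with the replicate block, and ran from -0.1 to 0.15 with 1 library left out (-0.02 without GFPsh replicate 3, -0.04 without FOSL1sh3 replicate 1, -0.1 without FOSL1sh3 replicate 3). MUC16 for FOSL1sh10 over GFPsh ran from -0.19 to 0.24, with -0.08 without GFPsh replicate 1, -0.0 without GFPsh replicate 3 and -0.19 without FOSL1sh10 replicate 3. TFF2 in that comparison became 0.08 with library totals alone and ran from -0.09 to 0.02 with 1 library left out, with 0.0 without GFPsh replicate 3 and 0.02 without FOSL1sh10 replicate 2. Library totals alone left 1 of the 10 genes called between FOSL1sh10 and GFPsh, and fitting only those groups called 1124 genes in all, in place of 676. Leaving out 1 library gave 2 to 4 of the 10 genes and 599 to 1803 genes in all between FOSL1sh3 and GFPsh, 1 to 2 and 347 to 919 between FOSL1sh10 and GFPsh, and 3 to 5 and 712 to 1920 between FOSL1sh3 and FOSL1sh10. Deviations from the group means correlated weakly between libraries of the same replicate number (9 pairs, -0.116 to 0.183, 2 of them over 0.1). Such values cannot show whether same-number libraries were handled together, which the labels do not say. The replicate block called 4, 2 and 5 of the 10 genes and 1456, 695 and 1673 genes in all. Depth limits the low genes: MUC5B had 5 to 54 counts a library, and MUC20 and TFF3 had 37 and 23 in all.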

Other observations

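Genes next to the mucins were also read, within 100000 bases. Of 55 neighbours outside the 10 genes 19 were tested, and 3 were called higher and 0 lower with FOSL1sh3 over GFPsh, where 5.21% of all tested genes were higher and 5.65% lower. There were 1 higher and 1 lower with FOSL1sh10 over GFPsh (3.13% and 2.15% of all tested genes), and 4 higher and 0 lower with FOSL1sh3 over FOSL1sh10 (5.74% and 6.99%). MUC2, itself a mucin and described above with the alternatives that lost its calls, is 1 of the 3 and 1 of the 4. THBS3, a thrombospondin gene 2672 bases from MUC1, had 16.6, 13.1 and 17.1 CPM in FOSL1sh3 libraries, 6.97, 4.63 and 7.11 CPM in FOSL1sh10 libraries and 5.92, 5.73 and 6.82 CPM in GFPsh libraries. Like MUC1, it was higher in every FOSL1sh3 library than in any other, with a log2 fold change of 1.34 over GFPsh (SE 0.225, adjusted p = 0.00135) and 1.33 over FOSL1sh10 (adjusted p = 0.00102) and 0.02 for FOSL1sh10 over GFPsh.

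SCAMP3, a membrane trafficking gene 63063 bases from MUC1, fell with FOSL1sh10. It had 82.9, 82.7 and 71.2 CPM in FOSL1sh3 libraries, 40.7, 35.8 and 39.8 CPM in FOSL1sh10 libraries and 61.6, 76.5 and 67.3 CPM in GFPsh libraries, a log2 change of -0.82 with FOSL1sh10 over GFPsh (adjusted p = 0.0013). HEG1, a mucin-like membrane protein gene 11891 bases from MUC13, had 11, 8.78 and 11 CPM in FOSL1sh3 libraries, 9.68, 14.9 and 12.4 CPM in FOSL1sh10 libraries and 4.54, 6.06 and 5.94 CPM in GFPsh libraries. Every knockdown library was above every GFPsh library, with a log2 change of 1.16 for FOSL1sh10 over GFPsh (adjusted p = 0.00496) and of 0.89 for FOSL1sh3 over GFPsh (adjusted p = 0.0207). The FOSL1sh3 call was lost without GFPsh replicate 1 or FOSL1sh3 replicate 1 or 3 (0.0561 to 0.0914).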
